A study of Mus musculus with 26 samples.

Results

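The regions described here are stretches of mouse chromatin that were open in epiblast-like cells and in which no peak was listed for EpiSCs of the same set or for ES cells. Peaks of the 8 Rd2 libraries were merged into 35442 union regions, and a region was kept if at least 3 of the 4 Rd2_EpiLC lists held a peak there and no Rd2_AFX list, no Rd2_ES list and no ES list of the first set did. This left 1376 member regions, or 3.88% of the union, among 10362 regions with a peak in at least 3 EpiLC lists. The members were thus chosen by the peak calls in those 11 lists, so their presence in EpiLCs and absence in Rd2_AFX and ES cells describe the choice and are no result.

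Open chromatin of mouse pluripotent cells was measured in 26 ATAC-seq libraries, where Tn5 transposase cuts and tags accessible DNA, of 50000 cells each. The first set held formative stem (FS) cells in A3XR medium as FS1 at passage 21 and FS2 at passage 29, epiblast stem cells (EpiSCs) in AF medium at passage 22 (EpiSC_AF) and in AFX medium as EpiSC_AFX1 at passage 14 and EpiSC_AFX2 at passage 16, as well as ES cells kept in 2iL at passage 16, with 3 libraries each. The Rd2 set held ES cells in 2iL at passage 33 (Rd2_ES, labelled Rd2GFP, 2 libraries), EpiSCs in AFX at passage 16 (Rd2_AFX, 2 libraries) and EpiLCs made from ES cells by 2 days in AF with KSR and sorted for low GFP (Rd2_EpiLC, 4 libraries). The titles of the Rd2 libraries call them WT. The labels do not say which reporter the GFP belongs to, whether the cultures numbered 1 and 2 are separate clones, or whether libraries of a group came from separate cultures, so each spread below may be technical. The titles number the EpiLC libraries in 2 parts: replicates 1 and 2 share the first number, as do replicates 3 and 4, and whether a shared number means 1 culture is not stated. If it does, a peak in 3 of 4 lists stands for 2 cultures.

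Naive pluripotency is the state of the ES cell in 2iL, which blocks GSK3 and MEK signalling. EpiLCs arise within days when ES cells meet activin and FGF, resemble the epiblast soon after implantation and switch on factors such as Otx2 and Pou3f1 together with the de novo DNA methyltransferases. EpiSCs are a primed, self-renewing state of later epiblast. Open sites at a gene's start are often shared between cell types, whereas distal sites, many of them enhancers, differ more.

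Members that lie over a gene's promoter show the kinds of region involved, and 7 are printed here. The promoter windows run from 250 bases before to 50 bases after a gene's start and come from RefSeq, build GRCm38.p6. Each is written 5′ to 3′ on the gene's strand, with the bases inside the member region in capitals. Sohlh2 and Mael stand for promoters with no peak in any FS or EpiSC list, Prmt9 for a member listed in FS but not in EpiSC_AFX libraries, Atf7ip for the converse, Spag16 for a member that split the EpiSC_AFX lines, and Sox11 and Dkk1 for developmental regulators listed in every culture.
Mael (minus strand, chr1:166238695-166238994): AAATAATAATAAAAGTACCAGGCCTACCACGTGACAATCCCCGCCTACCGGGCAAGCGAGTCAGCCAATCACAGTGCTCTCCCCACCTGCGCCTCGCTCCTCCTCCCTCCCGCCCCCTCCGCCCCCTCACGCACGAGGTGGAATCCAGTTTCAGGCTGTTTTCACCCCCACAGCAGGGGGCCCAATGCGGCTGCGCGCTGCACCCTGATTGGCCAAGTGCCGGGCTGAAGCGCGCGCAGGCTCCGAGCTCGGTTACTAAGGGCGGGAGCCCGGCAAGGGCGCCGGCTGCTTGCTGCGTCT
Sohlh2 (plus strand, chr3:55181794-55182093): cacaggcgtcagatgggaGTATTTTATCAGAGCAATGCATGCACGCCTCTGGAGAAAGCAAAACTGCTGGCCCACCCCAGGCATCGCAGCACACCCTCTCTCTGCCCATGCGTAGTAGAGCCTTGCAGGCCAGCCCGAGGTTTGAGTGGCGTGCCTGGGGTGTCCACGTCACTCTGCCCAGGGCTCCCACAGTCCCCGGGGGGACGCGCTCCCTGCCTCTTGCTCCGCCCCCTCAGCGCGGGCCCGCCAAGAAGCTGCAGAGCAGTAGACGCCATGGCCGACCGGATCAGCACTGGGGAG
Prmt9 (plus strand, chr8:77549147-77549446): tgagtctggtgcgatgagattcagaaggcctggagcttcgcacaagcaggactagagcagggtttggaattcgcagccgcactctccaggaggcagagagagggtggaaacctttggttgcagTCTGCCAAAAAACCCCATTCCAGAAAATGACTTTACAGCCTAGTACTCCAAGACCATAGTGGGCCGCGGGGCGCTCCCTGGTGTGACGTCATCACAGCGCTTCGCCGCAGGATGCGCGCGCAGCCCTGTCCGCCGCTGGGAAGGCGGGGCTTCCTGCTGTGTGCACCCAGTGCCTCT
Atf7ip (plus strand, chr6:136518601-136518900): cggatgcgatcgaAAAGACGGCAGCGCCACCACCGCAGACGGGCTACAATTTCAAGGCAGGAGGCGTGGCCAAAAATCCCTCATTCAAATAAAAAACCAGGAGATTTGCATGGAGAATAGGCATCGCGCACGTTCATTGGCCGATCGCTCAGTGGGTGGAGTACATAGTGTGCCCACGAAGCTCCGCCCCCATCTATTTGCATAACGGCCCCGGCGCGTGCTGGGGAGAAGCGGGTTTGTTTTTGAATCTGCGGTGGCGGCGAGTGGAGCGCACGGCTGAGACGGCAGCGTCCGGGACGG
Spag16 (plus strand, chr1:69826720-69827019): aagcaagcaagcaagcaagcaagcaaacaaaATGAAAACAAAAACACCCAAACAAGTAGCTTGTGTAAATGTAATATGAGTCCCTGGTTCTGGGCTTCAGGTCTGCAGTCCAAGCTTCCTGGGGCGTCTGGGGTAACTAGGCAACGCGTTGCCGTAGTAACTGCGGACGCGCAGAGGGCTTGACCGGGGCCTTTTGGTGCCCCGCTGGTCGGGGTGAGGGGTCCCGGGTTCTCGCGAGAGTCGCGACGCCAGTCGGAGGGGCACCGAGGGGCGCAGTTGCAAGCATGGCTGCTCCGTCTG
Sox11 (minus strand, chr12:27342669-27342968): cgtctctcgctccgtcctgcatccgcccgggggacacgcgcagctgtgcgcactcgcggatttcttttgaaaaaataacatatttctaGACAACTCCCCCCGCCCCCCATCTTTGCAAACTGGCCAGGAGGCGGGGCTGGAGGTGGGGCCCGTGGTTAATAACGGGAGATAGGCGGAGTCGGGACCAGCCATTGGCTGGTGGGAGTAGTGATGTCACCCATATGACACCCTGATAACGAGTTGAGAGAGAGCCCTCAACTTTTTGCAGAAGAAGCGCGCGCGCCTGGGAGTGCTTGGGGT
Dkk1 (minus strand, chr19:30549447-30549746): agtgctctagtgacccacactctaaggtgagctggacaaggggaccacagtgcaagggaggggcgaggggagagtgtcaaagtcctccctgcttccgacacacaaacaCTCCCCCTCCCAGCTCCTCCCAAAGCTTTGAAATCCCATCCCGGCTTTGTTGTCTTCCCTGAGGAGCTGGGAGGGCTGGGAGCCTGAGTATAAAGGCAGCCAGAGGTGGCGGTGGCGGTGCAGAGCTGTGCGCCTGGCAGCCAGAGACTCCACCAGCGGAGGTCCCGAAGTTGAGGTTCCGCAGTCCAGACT

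The member regions were not free of EpiSC peaks once other libraries were examined. In the 6 EpiSC_AFX lists of the first set, which the rule did not use, 1117 members (81.2%) had a peak in at least 1 list, against a background of 69.3% of all union regions. All 6 of these lists held a peak in 297 members (21.6%, background 31.5%), and none did in 259 (18.8%, background 30.7%). Over all EpiLC regions the shares with at least 1, all 6 and none of these lists were 96.5%, 75.8% and 3.51%. Members thus had EpiSC_AFX peaks less often than EpiLC regions as a whole. The absence of EpiSC peaks in AFX medium therefore held for the 2 Rd2_AFX lists and not for the 6 EpiSC_AFX lists. AFX-shared regions, defined in the same way but with a peak in both Rd2_AFX lists and in no ES list, numbered 1056 and had an EpiSC_AFX peak in 99.9% of cases. The contrasts with AFX-shared and with all EpiLC regions are partly built in, because Rd2_AFX and EpiSC_AFX are cultures in the same medium.

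The lists behind these counts differed in length. The 2 Rd2_AFX lists held 11252 and 10719 peaks, whereas the 6 EpiSC_AFX lists held 17701 to 29575. The 4 EpiLC lists held 10563, 23608, 7469 and 26045 peaks for replicates 1 to 4, and the members had a peak in 1086, 1368, 571 and 1359 of cases in the same order. Replicates 1, 2 and 4 without 3 accounted for 805 members, replicates 2, 3 and 4 without 1 for 290, and all 4 for 256. The short lists of replicates 1 and 3 thus limited the set: with replicate 1 left out and 2 of the other 3 required, 5089 regions qualified, and with replicate 3 left out 5284 did, against 1690 and 1649 without replicate 2 or 4. With each EpiLC and Rd2_AFX list cut to its 7469 highest peaks, 276 regions qualified, of which 91.3% had an EpiSC_AFX peak. The share over all regions of these shortened lists was not computed, so 91.3% is not read as a trait of the qualifying regions.

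Members were of middling to low rank within the lists that held them. By the authors' −log10 p, the median member stood at the 32.9th, 48.9th, 32.0th and 51.0th percentile of EpiLC replicates 1 to 4, and the median AFX-shared region at the 45.9th, 71.4th, 42.5th and 71.5th. In the 15 FS and EpiSC lists the median percentile of members ranged from 32.5 to 50.3 and that of AFX-shared regions from 55.0 to 76.4. Members just inside the rule, with 3 of 4 EpiLC lists, numbered 1120. Just outside it lay 4104 regions with 2 of 4 EpiLC lists and no Rd2_AFX or ES peak, and 901 regions with at least 3 EpiLC lists and 1 of 2 Rd2_AFX lists. FS1 lists overlapped on average 56.6% of those just inside, 40.9% of the former and 84.0% of the latter.

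With the lists as deposited, FS1 libraries overlapped most of the members and FS2 libraries few of them. The FS1 lists held a peak in 56.2%, 53.9% and 65.2% of members, and the FS2 lists in 25.4%, 19.6% and 21.9%. The EpiSC_AF lists held a peak in 34.7%, 50.1% and 52.9%. In EpiSC_AFX1 the shares were 35.8%, 43.2% and 55.4%, and in EpiSC_AFX2 they were 61.2%, 69.0% and 60.0%. The libraries of FS1 and FS2 did not overlap, nor did those of EpiSC_AFX1 and EpiSC_AFX2, although each pair shared its medium.

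These full-list shares rose with list length. FS2, the line with the lowest share, had the shortest lists, 11796 to 14147 peaks, and the EpiSC_AFX2 library with 29575 peaks and the FS1 library with 31263 had the highest shares in the plot of share against list length. The read depth of the libraries is unknown, so its part in list length was not tested. Lists were therefore also compared at 8044 peaks, the length of the shortest list of the first set, taking the peaks with the highest −log10 p.

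**Figure D1:**
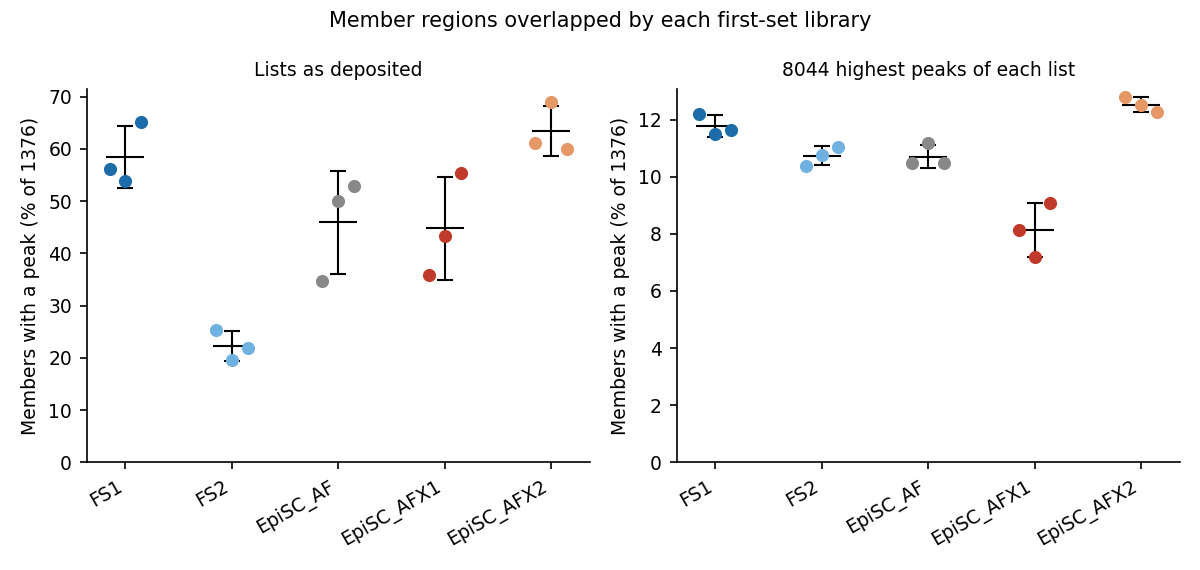
Percent of the 1376 member regions with a peak in each FS and EpiSC library, as deposited (left) and at 8044 peaks per list (right); points are libraries, horizontal marks the mean of 3 and bars 1 SD. On the left FS2 sits between 19.6% and 25.4%, below every other library, and on the right EpiSC_AFX1 sits between 7.19% and 9.08%, below every other library.

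**Figure D2:**
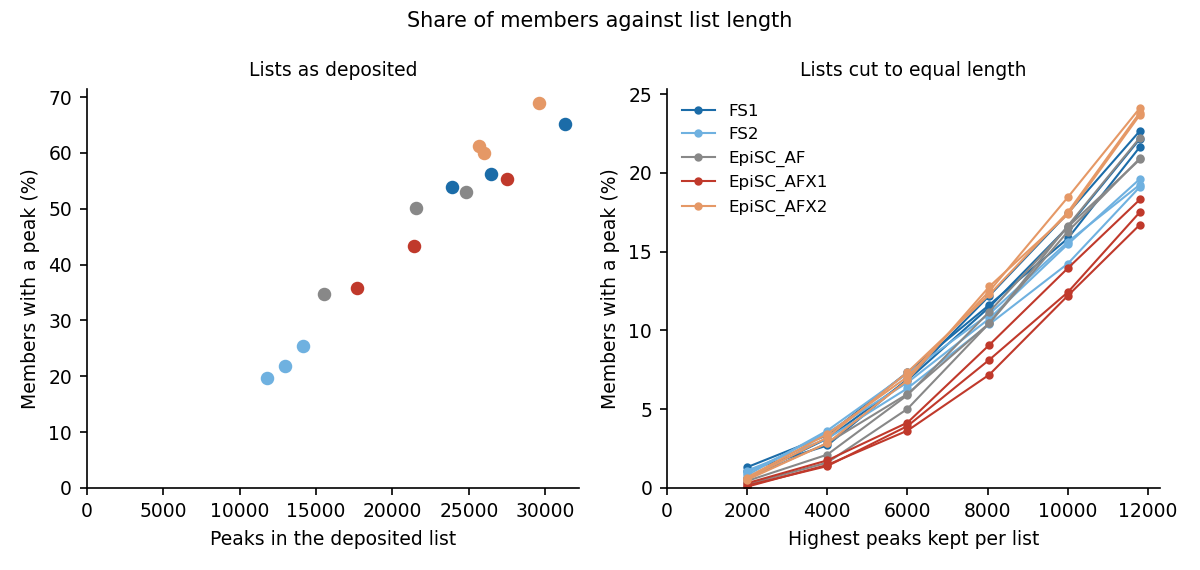
Percent of members with a peak against the number of peaks in the deposited list (left, 1 point per library) and against the number of highest peaks kept per list (right, 1 line per library). Libraries of all cultures rise with list length, and at equal length EpiSC_AFX1 lies lowest from 6000 kept peaks upward.

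At 8044 peaks the shares of single libraries ran from 7.19% to 12.8%. FS1 lists held a peak in 12.2%, 11.5% and 11.6% of members, and FS2 lists in 10.4%, 10.8% and 11.0%. EpiSC_AF lists held a peak in 10.5%, 11.2% and 10.5%. The shares in EpiSC_AFX1 were 8.14%, 7.19% and 9.08%, and those in EpiSC_AFX2 were 12.8%, 12.5% and 12.3%. EpiSC_AFX2 was thus the highest culture and EpiSC_AFX1 the lowest. EpiSC_AFX1 minus EpiSC_AFX2 was -4.38 percentage points with no overlap between their libraries, a contrast that 3 against 3 libraries cannot test below an exact p of 0.1. Of all pairs of cultures, only FS2 and EpiSC_AF overlapped in range.

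No difference in the share of members at this length passed the test. FS lists overlapped 11.3% ± 0.654 (SD, n = 6) of members and EpiSC_AFX lists 10.3% ± 2.48 (SD, n = 6), a difference of 0.921 points (two-sided exact permutation test over libraries, p = 0.396, or 0.5 after adjustment over 6 tests). Without the EpiSC_AFX2 line the difference reached 3.11 points (p = 0.0119 by the exact test, 0.0357 adjusted), whereas without the EpiSC_AFX1 line it turned to -1.27 points (p = 0.0238 by the exact test, 0.143 adjusted). The FS share lay 0.545 points above that of EpiSC_AF, 10.7% ± 0.42 (SD, n = 3; exact p = 0.25, 0.5 adjusted). EpiSC_AF in turn lay 0.375 points above EpiSC_AFX (exact p = 0.786, 0.786 adjusted). The sign of each of these 3 differences depended on list length: with the lists as deposited they were -13.7, -5.55 and -8.2 points.

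The member share was also divided by the share of AFX-shared regions in the same library. The rule itself lowers this ratio in AFX medium, since AFX-shared regions had to have a peak in both Rd2_AFX lists and members in neither. At 8044 peaks AFX-shared regions had a peak in 43.3% of cases in FS2 and 55.9% in EpiSC_AFX2. FS libraries had a ratio of 0.238 ± 0.0143 (SD, n = 6), EpiSC_AF libraries 0.211 ± 0.0112 (SD, n = 3) and EpiSC_AFX libraries 0.189 ± 0.0397 (SD, n = 6). The ratio in FS was higher than in EpiSC_AFX by 0.0488 (exact p = 0.0173, 0.104 adjusted) and higher than in EpiSC_AF by 0.0266 (exact p = 0.0595, 0.179 adjusted). EpiSC_AF was higher than EpiSC_AFX by 0.0222 (exact p = 0.417, 0.5 adjusted). Without the EpiSC_AFX2 line the FS surplus over EpiSC_AFX was 0.0836 (exact p = 0.0119, 0.0357 adjusted), and without the EpiSC_AFX1 line 0.014 (exact p = 0.179, 0.24 adjusted). By culture the ratio was 0.228 in FS1, 0.248 in FS2, 0.154 in EpiSC_AFX1 and 0.224 in EpiSC_AFX2. The FS1 and EpiSC_AFX2 ranges overlapped, and EpiSC_AFX1 again stood below all other cultures.

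With the 5000 highest peaks of each list the FS differences passed the threshold. None did once FS1 or FS2 was left out, and those against EpiSC_AFX did not once EpiSC_AFX1 was left out. The member share in FS then exceeded that in EpiSC_AFX by 1.32 points (exact p = 0.0281, 0.0422 adjusted) and that in EpiSC_AF by 1.47 points (exact p = 0.0119, 0.0238 adjusted). The ratio to AFX-shared regions in FS exceeded that in EpiSC_AFX by 0.060 (exact p = 0.00216, the smallest that 6 against 6 libraries allow, 0.013 adjusted) and that in EpiSC_AF by 0.0497 (exact p = 0.0119, 0.0238 adjusted). By culture the member share was 4.84% ± 0.4 (SD, n = 3) in FS1, 4.97% ± 0.373 in FS2, 3.44% ± 0.358 in EpiSC_AF, 2.52% ± 0.183 in EpiSC_AFX1 and 4.65% ± 0.126 in EpiSC_AFX2. In the member share the ranges of EpiSC_AFX2 and both FS lines overlapped. In the ratio they did not, with 0.139 to 0.147 in EpiSC_AFX2, 0.152 to 0.174 in FS1 and 0.177 to 0.192 in FS2. Without EpiSC_AFX1 the FS surplus over EpiSC_AFX was 0.254 points (exact p = 0.262, 0.262 adjusted) and 0.028 in the ratio (exact p = 0.0476, 0.0952 adjusted), and without EpiSC_AFX2 2.39 points and 0.092 (exact p = 0.0119, 0.0179 adjusted, for both). Without FS1 or FS2 none of the 4 differences passed after adjustment (exact tests, adjusted p of 0.107 to 0.196), and those against EpiSC_AF could not fall below an exact p of 0.1. These tests treat the 3 libraries of a line as separate, although lines stood apart and each group had only 1 or 2 lines, so the p-values measure the spread between libraries and not between lines. The choice of members against Rd2_AFX bears on these differences as well.

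Region by region, 1172 members (85.2%) were listed in some but not all of the 15 FS and EpiSC libraries. Some but not all FS lists held a peak in 971 members (70.6%), some but not all EpiSC_AFX lists in 820 (59.6%), and both held for 643 (46.7%). These shares of partial listing were not computed over all union regions, so they are not read as a trait of members. Of the 15 lists, none held a peak in 166 members (12.1%, background 25.3%) and all did in 38 (2.76%, background 14.8%). At least 1 FS list held a peak in 1054 members (76.6%, background 64%). Over all EpiLC regions the shares with no list, all lists and at least 1 FS list were 2.23%, 43.6% and 95.2%. Members with a peak in some FS list and no EpiSC list numbered 65 (4.72%, background 3.69%), and those with the converse 156 (11.3%, background 10.7%). Both shares lay near those of all union regions, but over all EpiLC regions they were only 0.869% and 2.57%. More FS than EpiSC_AFX lists held a peak in 235 members (17.1%, background 10.1%) and fewer did in 778 (56.5%, background 40.8%). As deposited, 182 members (13.2%, background 6.11%) had a peak in all 3 FS1 and no FS2 lists, and 0 (background 0.0339%) the converse, but the FS1 lists held 23883 to 31263 peaks and the FS2 lists 11796 to 14147. At 8044 peaks these counts were 21 (1.53%, background 1.09%) and 11 (0.799%, background 0.454%). At 8044 peaks per list, 769 members (55.9%, background 55.8%) had no peak in the 15 lists, against 15.8% of all EpiLC regions. At that length 245 members (17.8%, background 14.1%) had more FS than EpiSC_AFX lists and 233 (16.9%, background 17.1%) had fewer.

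**Figure D3:**
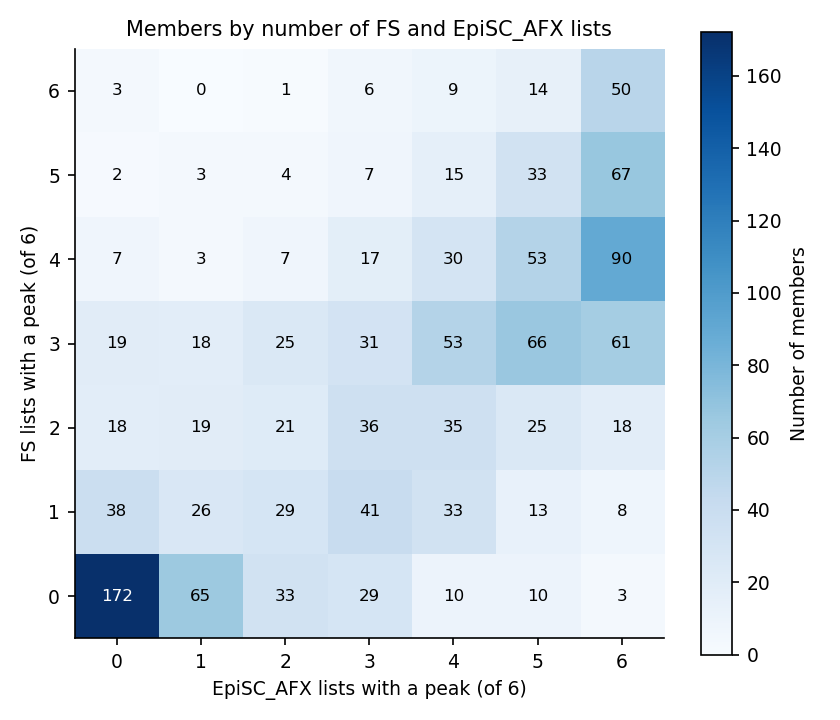
Number of the 1376 member regions by how many of 6 FS lists (vertical axis) and of 6 EpiSC_AFX lists (horizontal axis) held a peak, with the lists as deposited; colour and figures give the count. The largest cell holds the 172 members with no peak in either cell type, 50 members had a peak in all 12 lists, and 3 members each lie in the corners of full separation.

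Full separation was rare. All 6 FS lists and no EpiSC_AFX list held a peak in 3 members (0.218%, background 0.0282%), and the converse held for 3 (0.218%, background 0.104%). At least 4 FS lists and none of the 9 EpiSC lists did so in 9 members (0.654%, background 0.141%), and at least 4 EpiSC_AFX lists and no FS list in 23 (1.67%, background 1.1%). At 8044 peaks these last counts were 11 (0.799%, background 0.226%) and 5 (0.363%, background 0.299%). The members with no EpiSC_AFX list are favoured by the rule, and no test was made of these counts.

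No region separated FS from EpiSC_AFX libraries after adjustment. Fisher's exact test over libraries, run on all 35442 union regions, called 0 regions at an adjusted p under 0.05 (background 0%), and none could have passed unless 1535 regions had reached the lowest possible p of 0.00216. At an unadjusted p under 0.05, 5 members (0.363%, background 0.107%) were listed more often in FS and 21 (1.53%, background 0.714%) more often in EpiSC_AFX. At 8044 peaks the counts were 9 (0.654%, background 0.181%) and 1 (0.0727%, background 0.155%), so the direction of the larger count turned with list length.

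Members with the largest surplus of FS lists were near Adgrb2, Tex44, Gadl1, Acss1 and Prmt9. The member inside Adgrb2, an adhesion G protein-coupled receptor gene (chr4:130006592-130006789), and the member 39.4 kb from the testis gene Tex44 (chr1:86467493-86467717) had a peak in all 6 FS lists and in 0 of 9 EpiSC lists. The member 21.2 kb from Gadl1, an amino acid decarboxylase gene (chr9:115862716-115863499), had a peak in 6 FS lists, 1 EpiSC_AF list and 0 EpiSC_AFX lists. The member inside Acss1, a mitochondrial acetyl-CoA synthetase gene (chr2:150644024-150644253), had 5 FS lists and 0 EpiSC lists. The member at Prmt9, a protein arginine methyltransferase gene (chr8:77549270-77549712, promoter printed above), had 5 FS, 2 EpiSC_AF and 0 EpiSC_AFX lists. In EpiLCs the Prmt9 member was weak and uneven, at percentile 12.9 in replicate 1, 68.9 in replicate 2 and 2.7 in replicate 4.

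The members named for the largest surplus of EpiSC_AFX lists, with ties broken by EpiLC rank, lay between genes or at promoters. Those nearest to Got2 (1501 kb away, chr8:97389649-97390063), Ibtk (52.2 kb, chr9:85634870-85635150) and Armc1 (302 kb, chr3:18828848-18829636) had a peak in all 6 EpiSC_AFX lists, all 3 EpiSC_AF lists and 0 FS lists. At 8044 peaks the Got2 member was kept in 3 EpiSC_AF, 1 EpiSC_AFX1 and 1 EpiSC_AFX2 lists. The Ibtk member was then kept in 1 EpiSC_AF list and 0 EpiSC_AFX lists, and the Armc1 member in 0 of 15. The Atf7ip promoter (chr6:136518614-136519120), whose product partners the histone methyltransferase SETDB1, had 6 EpiSC_AFX, 3 EpiSC_AF and 1 FS lists. At 8044 peaks it was kept in 2 EpiSC_AF, 2 EpiSC_AFX1 and 2 EpiSC_AFX2 lists. The promoter of the autophagy gene Gabarapl1 (chr6:129532830-129533820) had 6 EpiSC_AFX, 0 EpiSC_AF and 1 FS lists, yet at 8044 peaks it had 0 of 15. These regions carried no Rd2_AFX peak although, as deposited, every EpiSC_AFX list of the first set held a peak there.

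The 10 strongest among the 256 members with a peak in all 4 EpiLC lists differed in their FS and EpiSC lists. Of these 10, 6 were listed by only a single EpiSC_AFX line. The share of all members or union regions listed in this way was not computed, so the count is not read as a trait of strong members. Members in 3 EpiLC lists could rank higher, such as the one at the Gm40071 promoter, at a mean percentile of 89.9. The highest mean percentile over 4 EpiLC lists, 88.6, belonged to a member 0.248 kb from Mysm1, a histone H2A deubiquitinase gene (chr4:94941249-94941789), with 1 FS, 2 EpiSC_AF and 3 EpiSC_AFX lists. The member at Cyp2j9, a cytochrome P450 gene (chr4:96591273-96591927), ranked evenly at percentiles 85.3, 90.6, 85.7 and 86.1 and was listed by 0 EpiSC_AFX1 and 3 EpiSC_AFX2 libraries. The same split of 0 and 3 held for the members at 2610528J11Rik (chr4:118526903-118527301), near the transporter gene Abca6 (chr11:110171261-110171846) and 141 kb from Suds3, a subunit gene of the Sin3 deacetylase complex (chr5:116950185-116951067). The Spag16 promoter, of a sperm axoneme gene (chr1:69826751-69827256), split the other way, with 3 EpiSC_AFX1 and 0 EpiSC_AFX2 lists. The members near Abca6 and Suds3 also had a peak in all 6 FS lists and in 3 of the 3 FS1 lists at 8044 peaks.

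The others of these 10 members were near Lmtk2 (a kinase gene, chr5:144084338-144084758), in Ctnnd1 (p120 catenin, which binds cadherins, chr2:84633015-84633354), at the formin gene Fhod1 (chr8:105336429-105336674) and near AB010352 (chr5:109844935-109845203). Their FS lists numbered 2, 3, 4 and 5 and their EpiSC_AFX lists 2, 5, 3 and 6. Over all members, 83 had a peak in all 3 EpiSC_AFX2 and no EpiSC_AFX1 lists (6.03%, background 2.05%) and 5 the converse (0.363%, background 0.302%). At 8044 peaks these counts were 23 (1.67%, background 0.844%) and 4 (0.291%, background 0.553%). The EpiSC_AFX2 lists were the longer, 25641 to 29575 peaks against 17701 to 27485, and the part of list length in the full-list counts was not tested.

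Of the members listed in all 15 libraries, the 5 strongest in EpiLCs lay in or near genes of several kinds. They were inside the potassium channel gene Kcnj6 (chr16:94931914-94932595), at Nkain4 (chr2:180954734-180954952), 1.88 kb from Sufu, an inhibitor of Hedgehog signalling (chr19:46490684-46490892), inside the interleukin receptor-related gene Sigirr (chr7:141092284-141092630) and 9.44 kb from the spindle checkpoint gene Mad1l1 (chr5:139999021-139999252). None of the 5 had a peak in EpiLC replicate 3, the shortest EpiLC list. They were absent from the Rd2_AFX and ES lists by the rule, but present in every other culture.

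Members lay at gene ends less often than other EpiLC regions, and between genes more often. Only 457 of the 1376 members lay at a gene end, meaning at most 1 kb from the start or end of a protein-coding gene, against 54.5% of AFX-shared regions and a background of 64.3% of all EpiLC regions on chromosomes of the gene table. Another 446 members (32.4%, background 20.3%) lay elsewhere within a gene, and 473 (34.4%, background 15.4%) lay between genes, at a median of 23.9 kb from the nearest gene. Members were also shorter, with a median of 484 bp against 590 bp for AFX-shared and 638 bp for all EpiLC regions. No test was made of these shares, since regions of a cell type are not replicates. Members also ranked lower within the lists (above), and the part of peak rank in their position was not tested.

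Position also moved with presence in EpiSC_AFX libraries. Among the 297 members with a peak in all 6 EpiSC_AFX lists, 51.5% lay at a gene end, close to the AFX-shared regions. Among the 259 with no EpiSC_AFX peak, 21.6% did, and 43.6% lay between genes. Members with 4 of 4 EpiLC lists had nearly the same positions as all members, 85 of 256 at gene ends and 35.9% between genes. By culture, FS1 lists overlapped 65.6% to 76.6% of the members at gene ends and 45.7% to 57.1% of those between genes, and FS2 lists 24.5% to 36.1% and 17.1% to 19.7%. At 8044 peaks the EpiSC_AFX1 lists overlapped 10.5% ± 1.22 (SD, n = 3) of members at gene ends and 6.84% ± 0.8 of those between genes, whereas EpiSC_AFX2 lists overlapped 12.1% ± 0.126 and 13.5% ± 1.16. The gap between both lines was thus wider in members between genes than at gene ends, a contrast that was not tested.

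**Figure D4:**
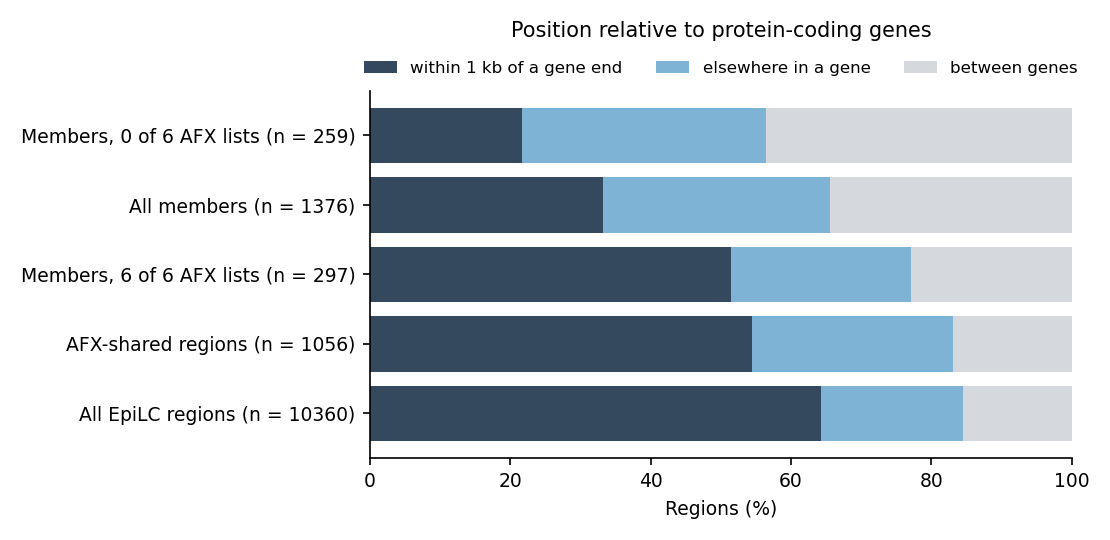
Percent of regions at most 1 kb from a gene end, elsewhere in a protein-coding gene, or between genes, for members by the number of EpiSC_AFX lists of the first set, for AFX-shared regions and for all EpiLC regions. The share at gene ends is 21.6% for members with no EpiSC_AFX list, 51.5% for members with all 6 and 54.5% for AFX-shared regions.

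Fewer members than other EpiLC regions overlapped a promoter window. The windows of 384 genes were touched by 340 members (24.7%), against 49.7% of AFX-shared and 58.1% of all EpiLC regions. These shares are lower bounds, because windows of chromosome 18, which holds 38 members, and of some other genes were not used here. The windows under members held a median of 19 CpG dinucleotides, as did those under AFX-shared regions, against 23 under all EpiLC regions and 7 over all 32851 windows of the table. Both strands were searched for TAATCC, the core of OTX2-type sites, ATGCAAA, an octamer core, and ACCGGT, a core of GRHL-type sites; none of these contains another. They were in 6.01%, 5.53% and 5.05% of the 416 windows under members, against 6.28%, 5.34% and 3.61% of those under AFX-shared regions, 4.68%, 3.21% and 3.79% of those under all EpiLC regions and 7.06%, 4.63% and 2.33% of all windows. Of the promoters printed above, Atf7ip holds the octamer core at 2 places, as TTTGCAT, and the other 6 hold none of the 3 letter strings.

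Most members over a promoter had an FS or EpiSC peak. Of the 340, 25 (7.35%) had no peak in the 15 lists, against 12.1% of all members and 25.3% of union regions, and these 25 touched promoters of 27 genes of several kinds. They included the germ line genes Mael, whose product acts in the piRNA pathway (chr1:166238528-166239023, mean EpiLC percentile 60.0), Sohlh2, a germ cell transcription factor (chr3:55181812-55182514, percentile 27.7), and Syce1, a synaptonemal complex component (chr7:140787367-140788188, percentile 26.5), as well as Hsf5, which is expressed in spermatocytes (chr11:87617134-87617410, percentile 26.9), D1Pas1, a testis RNA helicase (chr1:186967320-186967995, percentile 43.2), and Gpat2, a testis acyltransferase (chr2:127425015-127425484, percentile 36.0). The 3 EpiLC lists needed by the rule held a peak in each, and the fourth did not. Others of the 27 were the lens gene Bfsp1, the inflammasome adaptor Pycard and the ephrin receptor gene Epha6. Other germ line promoters under members did have such peaks. Sycp3, a synaptonemal complex gene (chr10:88459425-88459861), had 3 FS1, 1 FS2 and 0 EpiSC lists, Topaz1 (chr9:122747003-122747469) 3 FS1, 0 FS2 and 1 EpiSC_AFX2 lists, and M1ap (chr6:82946702-82947339) 2 FS1, 2 FS2 and 3 EpiSC_AFX2 lists. All of these genes were picked out after their values were seen and no test was made.

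Some of the genes known for pluripotency, signalling and lineage choice had members nearby. A member lay within 20 kb of the span of 7.98% of the 21887 protein-coding genes. Of 17 formative genes 6 (35.3%) had a member, of 14 genes of adhesion and epithelium 4 (28.6%), of 13 naive genes 3 (23.1%), of 16 primed genes 3 (18.8%) and of 18 Wnt pathway genes 3 (16.7%). Of 13 neural genes 2 (15.4%) had a member, of 18 FGF pathway genes 2 (11.1%), of 9 germ cell genes 1 (11.1%) and of 20 Nodal and TGF-beta pathway genes 1 (5%). The share was thus above that of all genes in each list but the Nodal and TGF-beta list, with counts of 1 to 6 genes and no test made. An AFX-shared region lay within 20 kb of 8.31% of all genes. Such a region lay near 5 formative, 4 adhesion, 3 neural, 2 FGF pathway, 2 Wnt pathway, 1 naive and 1 primed genes. In the Nodal and TGF-beta and germ cell lists the count was 0. Closeness to formative and adhesion genes was thus not particular to members. The median number of members per gene was 0 in each list, as over all genes. The genes differ in length, which was not adjusted for, and a nearby gene need not be the gene that a region acts on.

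Among formative genes, the member 1.02 kb outside Otx2, the homeobox factor that marks the exit from naive pluripotency (chr14:48654634-48655756), had a peak in 3 FS1, 1 FS2, 3 EpiSC_AF and 6 EpiSC_AFX lists. At 8044 peaks it was kept in 0 FS, 2 EpiSC_AF and 5 EpiSC_AFX lists. The member 10.7 kb from Pou3f1, which encodes the POU factor OCT6 (chr4:124646352-124646904), was listed by 3 FS1, 0 FS2, 2 EpiSC_AF, 0 EpiSC_AFX1 and 3 EpiSC_AFX2 libraries. The member inside Sall2, a zinc finger factor gene (chr14:52325974-52326232), had 3 FS1, 0 FS2, 0 EpiSC_AF, 0 EpiSC_AFX1 and 2 EpiSC_AFX2 lists and stood at a mean EpiLC percentile of 69.6. The member inside the de novo methyltransferase gene Dnmt3b (chr2:153651761-153651969) was listed by every culture. These members thus did not share a pattern across the FS and EpiSC lists.

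Of the naive genes, Esrrb, an orphan nuclear receptor gene, held 2 members (chr12:86470040-86470457 and chr12:86498800-86499156), each listed by 2 of 15 and 4 of 15 libraries in that order. Nr5a2, another nuclear receptor gene, held a member (chr1:136948987-136949538) with 4 FS, 3 EpiSC_AF and 6 EpiSC_AFX lists. The member 1.57 kb from Dppa3, a maternal factor gene that is also in the germ cell list (chr6:122624561-122624857), had 2 FS, 0 EpiSC_AF and 2 EpiSC_AFX lists. None of these 4 was kept at 8044 peaks in any of the 15 lists. They are open regions of EpiLCs beside naive genes that carried no ES peak by the rule.

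Of the primed genes, the member 0.75 kb from Eomes, a T-box factor of mesendoderm (chr9:118486882-118487107), had 5 FS, 3 EpiSC_AF and 6 EpiSC_AFX lists, and the one inside Gata4, an endoderm factor gene (chr14:63255805-63256352), 1 FS, 3 EpiSC_AF and 5 EpiSC_AFX lists. The member over the start of Krt18, an epithelial keratin gene that is in the adhesion list too (chr15:102028040-102028406), was listed by 2 libraries of each of the 5 cultures. Of the remaining adhesion genes, the member inside Cdh1, which encodes E-cadherin (chr8:106619647-106619927), had 5 FS, 3 EpiSC_AF and 6 EpiSC_AFX lists. At 8044 peaks it was kept in 3 FS1, 2 FS2, 0 EpiSC_AF, 0 EpiSC_AFX1 and 1 EpiSC_AFX2 lists. The member 14.3 kb from the tight junction gene Cldn6 (chr17:23664751-23665022) had 0 FS, 0 EpiSC_AF, 2 EpiSC_AFX1 and 3 EpiSC_AFX2 lists. Podxl, which encodes a sialomucin of the apical surface, held a member (chr6:31560205-31560706) listed in 4 of 4 EpiLC lists and by every culture.

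In the FGF pathway, the receptor gene Fgfr4 had a member over its promoter (chr13:55152649-55153095) with 6 FS, 2 EpiSC_AF and 5 EpiSC_AFX lists, and the feedback inhibitor gene Spry4 had a member 6.24 kb away (chr18:38579877-38580011) with a peak in 0 of 15 lists. In the Nodal and TGF-beta pathway, the member 2.55 kb from Id2, a target of BMP signalling (chr12:25098644-25099006), had 4 FS, 3 EpiSC_AF and 5 EpiSC_AFX lists. In the Wnt pathway, the receptor gene Fzd2 had a member 8.51 kb away (chr11:102595400-102595917) with 2 FS, 3 EpiSC_AF and 5 EpiSC_AFX lists, and the nuclear effector gene Lef1 had one 13.6 kb away (chr3:131237918-131238280) with 4, 2 and 5. The member over the start of Dkk1, a secreted Wnt inhibitor (chr19:30548898-30549638), had 4 FS, 2 EpiSC_AF and 6 EpiSC_AFX lists. Among neural genes, the member over the start of Sox11, a SOX factor of neural progenitors (chr12:27342276-27342880), had a peak in 4 of 4 EpiLC lists and in 4 FS, 3 EpiSC_AF and 6 EpiSC_AFX lists. The member 2.48 kb from the Notch target Hes1 (chr16:30070278-30070836) had 3 FS, 3 EpiSC_AF and 6 EpiSC_AFX lists.

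Members were spread over many genes. As the nearest protein-coding gene, 1262 genes took up the 1376 members, 95 genes had at least 2 and 15 at least 3. 4 members each were nearest to Tspan5, a tetraspanin gene, Hivep2, a zinc finger factor gene, the crystallin gene Cryba4 and the predicted gene Gm15319, and 11 genes with 3 members shared the next place. The members inside Hivep2 (between positions 13965589 and 14057406 of chromosome 10) had 1 to 5 FS and 3 to 6 EpiSC_AFX lists. Those near Gm15319 (between positions 20302801 and 20387792 of chromosome 8) had 0 EpiSC_AFX lists, and only 1 of them had an FS list. The 11 genes included Foxp1 and Foxp4, forkhead factor genes, and the neural gene Enc1. Near Foxp1 the 3 members had 0 or 1 FS lists and 1 EpiSC_AFX list each.

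The labels of the lists behind the rule were set against marker genes, counted as genes with a peak within 20 kb. Of 8 EpiLC markers, the EpiLC lists held 8, 8, 4 and 8, the Rd2_AFX lists 7 and 7, the Rd2_ES lists 0 and 1 and the ES lists 4, 1 and 2. Of 8 naive markers, the EpiLC lists held 4, 7, 4 and 7, the Rd2_AFX lists 4 and 3 and the ES lists 8, 6 and 6. Of 4 pluripotent core markers, the EpiLC lists held 3, 4, 2 and 4, the Rd2_AFX lists 3 and 3 and the ES lists 2, 3 and 3. Of 6 fibroblast markers the EpiLC lists held 4, 5, 3 and 5, the Rd2_AFX lists 2 and 2, the Rd2_ES lists 0 and 0 and the ES lists 2, 1 and 2. The collagen gene Col1a2 and the mesenchymal factor genes Twist1 and Prrx1 had a peak in 4, 3 and 3 EpiLC lists and in no Rd2_AFX, Rd2_ES or ES list, Twist2 had none in any, and Col1a2 was the 1 fibroblast marker with a member within 20 kb. The other fibroblast markers, Col1a1 and Thy1, had a peak in 3 and 4 EpiLC lists, but also in 2 and 2 Rd2_AFX lists and 3 and 2 ES lists. The EpiLC lists held, of 6 mesendoderm markers 2, 3, 1 and 6, of 5 extraembryonic endoderm markers 1, 4, 0 and 3, of 5 trophectoderm markers 2, 4, 1 and 3 and of 4 neural markers 3, 4, 1 and 4. Each of these counts was lowest, or tied for lowest, in EpiLC replicate 3, the shortest EpiLC list, and an open site does not show that a gene is expressed. The Rd2_ES lists, with 471 and 2576 peaks, held few peaks at any marker, and without them in the rule 1412 regions qualified. In the Rd2_AFX lists the counts were 1 and 2 for mesendoderm, 1 and 2 for extraembryonic endoderm, 1 and 2 for trophectoderm and 3 and 3 for neural markers. More fibroblast markers thus had a peak in each EpiLC list than in either Rd2_AFX list, but in the shortest EpiLC list only 3 against 2. A member lay within 20 kb of 4 of 8 EpiLC, 2 of 8 naive, 0 of 4 pluripotent core and 1 of 6 fibroblast markers. It did so for 1 of 6 mesendoderm, 1 of 5 extraembryonic endoderm, 1 of 5 trophectoderm and 0 of 4 neural markers. The part of other cell types in the member set was not tested.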

How the data were processed

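The deposited data were 26 ATAC-seq peak lists in broadPeak layout, 1 per library, so the authors called peaks per library. Per the submitters' processing notes, the build was mm10 and Trim Galore, Bowtie, Picard and MACS2 were used; versions, settings and controls are not given in the sources used here. Each peak carries the authors' fold enrichment (a ratio), −log10 p and −log10 q, used only to rank or filter peaks within a list, and a deposited score, which was not used. The lowest −log10 q was about 1. The shortest peak was 150 bp in the first set and 110 bp in the Rd2 set, so the authors' processing may have differed between sets. A difference between the sets cannot be told apart from such a difference in processing. Depth is unknown, so no counting interval is given; the number of peaks stands in for it.

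Overlapping or touching peaks of the 8 Rd2 lists were merged, and a peak was present where it shared at least 1 bp with a region. Shares were computed for the lists as deposited and for the 8044 peaks highest in −log10 p. Exact permutation tests over libraries were two-sided, with Benjamini-Hochberg adjustment over 6 tests and a threshold of 0.05. Fisher's exact test over libraries was run on all union regions and adjusted over them. Distances used 21887 protein-coding genes of GRCm38.p6, which mm10 corresponds to, and promoters the RefSeq table of that build; 340 members touched a window. The gene table gives no strand, so either gene end was used.

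Named regions were the 10 strongest in 4 EpiLC lists, the 5 with the largest and the 5 with the smallest surplus of FS over EpiSC_AFX lists, the 5 in most of the 15 lists, listed genes within 20 kb of a member, the genes nearest to most members and members over starts of listed genes. The members and gene lists were chosen with earlier results of these data known. Alternatives covered list length, ranking, overlap, threshold, the EpiLC lists needed and libraries left out. Scripts ran in Python 3.11.15 with numpy 2.4.6, pandas 2.3.3 and scipy 1.17.1 and were tested on simulated lists.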

Additional observations from a re-analysis of the deposited data

How the results depend on the processing

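Of 202 recomputed values, 164 kept their direction and side of the threshold or, for counts, lay within 1.5 times the reported count (for the share at gene ends, within its binomial interval), 24 changed sign, 8 newly passed the threshold and 6 counts or shares moved further. With the lists as deposited, the member share gave FS minus EpiSC_AFX -13.7, FS minus EpiSC_AF -5.55 and EpiSC_AF minus EpiSC_AFX -8.2 points, and the ratio to AFX-shared regions -0.0812, -0.0256 and -0.0555. With a −log10 q of at least 5 these were -5.09, -0.581 and -4.51 points and -0.0306, -0.00981 and -0.0208, and 238 regions met the rule. Both settings leave list lengths unequal. With 5000 peaks, FS minus EpiSC_AFX was 1.32 points and 0.060, FS minus EpiSC_AF 1.47 points and 0.0497, all past the threshold, and EpiSC_AF minus EpiSC_AFX -0.145 points. At 11796 peaks, a length chosen after seeing the data, FS minus EpiSC_AF was -0.594 points.

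With 4 of 4 EpiLC lists (256 regions) FS minus EpiSC_AF was -1.69 points, and with EpiLC and Rd2_AFX lists of equal length (276 regions) FS minus EpiSC_AFX was -0.725 and EpiSC_AF minus EpiSC_AFX -1.03 points. Leaving out lines was also added after seeing the data. Without EpiSC_AFX1, FS minus EpiSC_AFX was -1.27 points and EpiSC_AF minus EpiSC_AFX -1.82 points and -0.0125 in the ratio. Without EpiSC_AFX2, FS minus EpiSC_AFX was 3.11 points and 0.0836 in the ratio, both past the threshold. With 5000 peaks, EpiSC_AF minus EpiSC_AFX was -1.21 points and -0.0217 in the ratio without EpiSC_AFX1, and FS minus EpiSC_AFX 2.39 points and 0.092, past the threshold, without EpiSC_AFX2. Leaving out single libraries, EpiSC_AF minus EpiSC_AFX ranged from -0.252 to 0.867 points, below 0 without EpiSC_AFX1 replicate 1 or 2, and the number of members from 1649 to 5284. Within 5 kb of a gene end lay 46.6% of members. The cause of these changes was not tested.

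Replicate numbers did not pair the libraries: same-numbered libraries correlated at -0.0369 to 0.084, and 6 of 15 correlated best with their own number. With a replicate block, the ratio in FS minus EpiSC_AFX had an exact permutation p of 0.0278 (adjusted 0.167), and no call changed.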
